A study of Homo sapiens with 12 samples.

Results

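MEST and 9 other imprinted genes (IGF2, H19, CDKN1C, DLK1, MEG3, PEG3, PEG10, SGCE and PLAGL1) were examined in rhabdomyosarcoma cells depleted of the histone demethylase KDM3A. These 10 genes were picked by name, out of 65958 genes of the expression table. MEST was chosen on its drop in RD cells with KDM3A knockdown, so its values in that comparison, and those that contain it, are given here as a description with no test. The other 9 were chosen as imprinted genes with earlier results of these data known.

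RNA was sequenced from RD cells, a line of fusion-negative rhabdomyosarcoma (FN-RMS), and from Rh30 cells, a line of fusion-positive rhabdomyosarcoma (FP-RMS). In each line, cells stably carrying the control shRNA (Scramble) were compared with cells stably carrying the shRNA KDM3A-sh2, both delivered by lentivirus with puromycin selection, with 3 libraries in each of the 4 groups. Each subtype was thus 1 cell line and the knockdown 1 shRNA, so effects of the loss of KDM3A and other effects of that shRNA cannot be told apart. The sources used here do not give whether separate cultures were sequenced, and the p-values measure only the spread between these libraries.

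An imprinted gene is expressed mainly from the copy inherited from 1 parent, and the choice is kept by DNA methylation at CG sites of a control region near the gene. MEST, IGF2, DLK1, PEG3, PEG10, SGCE and PLAGL1 are paternally expressed, and H19, MEG3 and CDKN1C maternally. Many of them set growth in the embryo, and IGF2 is widely known for its high expression in rhabdomyosarcoma. FPKM of a whole gene do not tell the parental copies apart, so nothing here measures imprinting itself.

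The values are FPKM (fragments scaled to transcript length and to library size), which are per length and can be compared between genes. Fold changes are differences of log2(FPKM + 1), tested with limma across all genes that averaged 1 FPKM or more, and a gene is called at a Benjamini-Hochberg adjusted p under 0.05. The added 1 understates the change of low genes. The smallest p that an exact permutation test allows with 3 libraries against 3 is 0.1. Summed FPKM ran from 1196850 to 1377720 per library, and the relative depth, estimated from the lowest values, from 0.874 to 1.18. KDM3A itself fell in RD, from 33.5 ± 2.50 to 12.2 ± 1.09 FPKM (SD, n = 3). In Rh30 it fell from 29.7 ± 2.14 to 14.1 ± 1.15 FPKM. Of 14 muscle markers, 12 in RD and 11 in Rh30 reached 1 FPKM. Their summed level was 3472 to 3786 FPKM in RD Scramble and 3829 to 3966 FPKM in RD KDM3A-sh2. It was 4652 to 5086 FPKM in Rh30 Scramble and 4578 to 4591 FPKM in Rh30 KDM3A-sh2. The single markers moved in both directions, which these sums do not show. In RD, 5 of the 12 tested were called higher and 6 lower, with log2 changes from -0.834 to 0.511. In Rh30, 3 of the 11 tested were called higher and 5 lower, with log2 changes from -0.997 to 0.799. Of 12 markers of other cell types (endothelial, blood, epithelial, and neural crest or glia), 2 reached 1 FPKM in each group. Whether these shifts in muscle markers bear on the results below was not tested.

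Start-site windows are shown because control regions of imprinted genes are dense in CG sites. Whether the printed windows lie in such a control region was not tested. The RefSeq table (GRCh38.p14) holds windows of 300 bases, 250 before and 50 after a start, for 4 of the 10 genes, and for each the window with the most CG is printed 5′ to 3′ on the strand of the gene, with every CG in capitals. A CG reads the same on both strands.
MEST, chr7:130491835-130492134, + strand: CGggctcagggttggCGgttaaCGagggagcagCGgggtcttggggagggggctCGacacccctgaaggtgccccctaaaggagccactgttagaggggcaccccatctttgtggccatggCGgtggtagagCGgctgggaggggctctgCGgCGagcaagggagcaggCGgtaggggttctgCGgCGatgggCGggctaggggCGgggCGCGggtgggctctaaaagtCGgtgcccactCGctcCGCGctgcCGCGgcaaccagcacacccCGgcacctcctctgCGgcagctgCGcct
PLAGL1, chr6:144008210-144008509, - strand: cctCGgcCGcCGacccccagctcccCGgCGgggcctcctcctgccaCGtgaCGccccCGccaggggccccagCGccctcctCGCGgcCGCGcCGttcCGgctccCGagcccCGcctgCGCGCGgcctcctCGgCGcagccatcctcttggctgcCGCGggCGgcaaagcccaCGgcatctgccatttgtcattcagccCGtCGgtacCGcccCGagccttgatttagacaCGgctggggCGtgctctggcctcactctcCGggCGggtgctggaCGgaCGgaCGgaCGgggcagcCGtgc
MEG3, chr14:100825858-100826157, + strand: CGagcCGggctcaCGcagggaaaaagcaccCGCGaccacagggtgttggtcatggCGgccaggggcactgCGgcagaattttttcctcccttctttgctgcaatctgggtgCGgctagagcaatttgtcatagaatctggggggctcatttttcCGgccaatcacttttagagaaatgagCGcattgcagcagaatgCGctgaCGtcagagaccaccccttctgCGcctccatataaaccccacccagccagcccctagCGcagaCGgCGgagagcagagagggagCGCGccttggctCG
H19, chr11:2001217-2001516, - strand: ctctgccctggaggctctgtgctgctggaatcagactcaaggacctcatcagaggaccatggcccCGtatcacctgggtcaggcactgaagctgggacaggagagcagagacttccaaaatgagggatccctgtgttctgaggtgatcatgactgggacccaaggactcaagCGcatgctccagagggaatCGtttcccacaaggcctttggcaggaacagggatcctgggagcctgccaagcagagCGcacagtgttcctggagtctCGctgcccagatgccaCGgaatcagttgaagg
The window of PLAGL1 holds 39 CG, a count that 8.71% of all 34943 windows reach, and it also overlaps an exon of the noncoding gene HYMAI. The window of MEST holds 25 CG (reached by 31.9% of windows), that of MEG3 19 (42.8%) and that of H19 6 (66.2%), against a median of 14. The printed window was the richest of 5 listed starts for MEST and for PLAGL1, of 3 for MEG3 and of 1 for H19. The percentages and the median are over single windows, so the ranks depend in part on the number of starts. Each window overlaps an exon of its own gene in GENCODE 29.

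MEST is also the host of the microRNA gene MIR335, whose mature products (seed, bases 2 to 8, in capitals) are shown because their gene lies inside MEST, at chr7:130496126-130496148 and chr7:130496162-130496183.
hsa-miR-335-5p: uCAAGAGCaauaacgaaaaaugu
hsa-miR-335-3p: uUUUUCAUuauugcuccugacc
The entry of MIR335 was listed at 0 in all 12 libraries, as was that of MIR675 inside H19. The libraries were made from polyadenylated RNA and do not measure mature microRNAs.

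MEST (ENSG00000106484, chr7:130486171-130506465, + strand, GRCh38) encodes a protein of the alpha/beta hydrolase fold found in mesoderm. In RD Scramble its level was 990, 987 and 950 FPKM, and in RD KDM3A-sh2 334, 322 and 344 FPKM. The groups did not overlap, and MEST fell by 65.9% in the mean, or by 1.55 on the log2(FPKM + 1) scale. This ranked 34 from the lowest among 17986 genes, the value for which the gene was chosen. In Rh30 Scramble MEST stood at 1340, 1334 and 1416 FPKM, and in Rh30 KDM3A-sh2 at 804, 802 and 776 FPKM. The groups again did not overlap. MEST fell by 41.8% in Rh30 (log2 change -0.78, SE 0.034, adjusted p = 7.22e-05 in limma). From the highest to the lowest, the groups were ordered Rh30 Scramble, RD Scramble, Rh30 KDM3A-sh2 and RD KDM3A-sh2, with no overlap between neighbours in that order. The change in Rh30 was smaller than that in RD by 0.77 (log2), given with no test since it contains the chosen value.

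The level of MEST has a limit of sequence. The table lists 4 processed pseudogenes, MESTP1 to MESTP4, near-identical copies that can take reads of MEST or give reads to it. MESTP1 stood at 247 ± 10.8 FPKM in RD Scramble and 85.8 ± 0.394 FPKM in RD KDM3A-sh2 (SD, n = 3). In Rh30 it stood at 328 ± 15.1 and 181 ± 1.49 FPKM. The other 3 pseudogenes were lower, at 6.60 to 66.2 FPKM over all libraries. MEST made up 72.5% to 75.9% of the sum of the 5 entries in every library, so the pseudogenes moved with MEST. The sum adds values that are per length, so this is not a share of reads. For the sum, the log2 change was -0.80 in Rh30 (adjusted p = 5.2e-05) and -1.54 in RD. How the reads were shared between these entries was not tested.

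**Figure D1:**
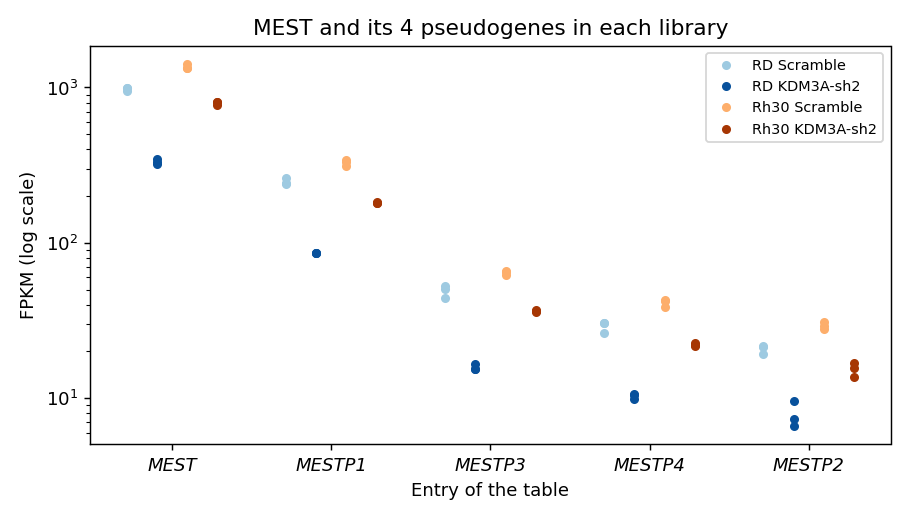
MEST and its 4 processed pseudogenes in each of the 12 libraries, in FPKM on a log scale, with 1 point per library and colours for the 4 groups. In each line the KDM3A-sh2 points of all 5 entries lie below the Scramble points, and MESTP1 is the highest of the pseudogenes.

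The genes whose level followed MEST most closely over the 12 libraries (Pearson's r on log2(FPKM + 1), 11016 genes averaging 10 FPKM or more) were BUD13 (r = 0.997), MESTP1 (0.995), MESTP4 (0.994), XRCC6P2 (0.994) and MESTP3 (0.994). Thus 3 of the 5 were the copies of MEST itself. BUD13 averaged 21.2 FPKM in RD Scramble and 10.8 in RD KDM3A-sh2, and 25.0 and 18.0 FPKM in the Rh30 groups. Of the 6 other members that reached this level, PLAGL1 had the highest r with MEST (0.936, rank 170) and SGCE the lowest (-0.62). The 12 libraries fall into 4 groups, so these values describe the pattern over groups and carry no test.

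In Rh30, 7 of the 10 genes reached the minimum level and were tested. Of these, 3 fell (MEST, IGF2 and PLAGL1), 2 rose (MEG3 and PEG10) and 2 did not pass the test (PEG3 and SGCE). Over all 17796 genes tested in Rh30, 13.2% were called lower and 15.3% higher. The groups did not overlap for 5 of the 7, against 45.8% of all genes. The median change of the 7 was -0.01, against 0.03 for all genes. In RD, 7 genes beside MEST were tested, of which 3 fell (IGF2, CDKN1C and PLAGL1), 1 rose (PEG10) and 3 did not pass (DLK1, MEG3 and SGCE). Over all 17986 genes tested in RD, 19.5% were called lower and 21.6% higher. The groups did not overlap for 6 of the 7, against 53.4% of all genes, and the median change of the 7 was -0.56, against 0.01 for all genes.

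**Figure D2:**
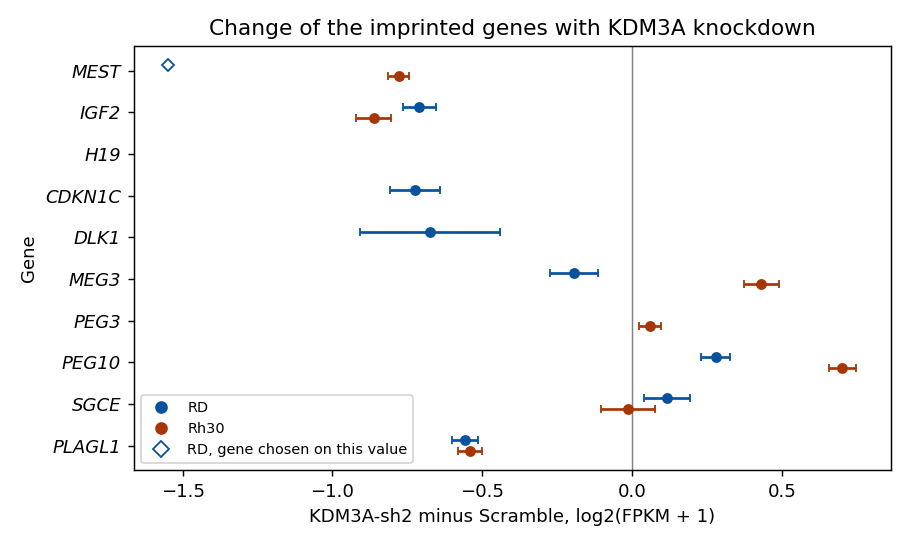
Change of each tested gene with KDM3A-sh2 in RD (blue) and Rh30 (brown), as the difference of mean log2(FPKM + 1), with bars of 1 SE from limma (n = 3 libraries per group). The open diamond is MEST in RD, on which it was chosen. IGF2 and PLAGL1 lie to the left of 0 and PEG10 to the right in both lines, and MEG3 differs in sign between them.

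IGF2 (ENSG00000167244, chr11:2129112-2149603, - strand) encodes insulin-like growth factor 2, a ligand that signals growth and survival. It had the highest level of the 10 genes in every group, and ranked 15 among all genes in RD Scramble. In RD Scramble it stood at 4636, 5395 and 5064 FPKM, and in RD KDM3A-sh2 at 3087, 3104 and 3019 FPKM. In Rh30 Scramble the level was 2181, 2410 and 2098 FPKM, and in Rh30 KDM3A-sh2 1201, 1194 and 1279 FPKM. The groups did not overlap in either line. In RD IGF2 fell by 39.0% (log2 change -0.71, SE 0.055, adjusted p = 0.000136). In Rh30 it fell by 45.1% (-0.86, SE 0.057, adjusted p = 0.000217). The difference between the lines did not pass the test (-0.15, SE 0.085, adjusted p = 0.216). The test on unlogged FPKM, where IGF2 has a larger starting level in RD, gave a drop smaller in Rh30 by 956 FPKM (adjusted p = 0.0189).

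Other entries of the table share the IGF2 locus. AC132217.1, a gene of the same strand inside IGF2 (chr11:2129121-2129964), was listed at 5916 ± 652 FPKM in RD Scramble and 3751 ± 185 FPKM in RD KDM3A-sh2. In Rh30 it went from 2337 ± 220 to 1547 ± 22.9 FPKM. Reads of IGF2 and of this entry cannot be told apart where they overlap, and its level was 0.998 to 1.31 times that of IGF2 over the libraries. For the sum of both entries RD had a log2 change of -0.68 (adjusted p = 0.000366) and Rh30 one of -0.72 (adjusted p = 0.000404). This sum adds values that are per length, so it is not the level of the pooled reads. The antisense gene IGF2-AS also fell in both lines, with a log2 change of -0.38 (RD, adjusted p = 0.00207) and -0.57 (Rh30, adjusted p = 0.000671). The strand setting of the counting is not given in the sources used here, so its reads may include reads of IGF2.

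Proteins that bind the IGF2 mRNA were described as a small list. IGF2BP1, IGF2BP2 and IGF2BP3 bind that mRNA, and LIN28B, an RNA-binding protein that blocks let-7 microRNAs, is linked to the same oncofetal set. In RD LIN28B fell from 11.9 ± 1.11 to 2.69 ± 0.00655 FPKM (log2 change -1.80, adjusted p = 2.46e-05). In Rh30 LIN28B fell from 8.59 ± 0.429 to 2.39 ± 0.115 FPKM (-1.50, adjusted p = 0.000122). IGF2BP2 fell by 0.50 in RD and by 0.62 in Rh30 (log2). Thus 3 of the 4 fell in each line (LIN28B, IGF2BP1 and IGF2BP2), where 19.5% of all genes were called lower in RD and 13.2% in Rh30. The median change of the 4 was -0.48 in both lines. IGF2BP3 rose by 0.29 in RD and did not pass the test in Rh30 (-0.14).

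H19 (ENSG00000130600, chr11:1995176-2001470, - strand), the noncoding RNA next to IGF2, was listed at 0 in 7 of the 12 libraries and at no more than 0.158 FPKM in the others. It was not tested. Its level was at most 7.2e-05 of that of IGF2 in any library, so that of this neighbouring pair only IGF2 was detected at an appreciable level.

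CDKN1C (ENSG00000129757, chr11:2883213-2885773, - strand) encodes p57, an inhibitor of cyclin-dependent kinases that slows the cell cycle. In RD Scramble it stood at 19.4, 20.1 and 20.4 FPKM, and in RD KDM3A-sh2 at 10.2, 12.2 and 12.8 FPKM, with no overlap. It fell by 41.2% (log2 change -0.72, SE 0.085, adjusted p = 0.000731). In the 6 Rh30 libraries it was at 0.192 to 0.454 FPKM and was not tested there. A second entry of the same name was listed at 0 in all 12 libraries. Its relative CDKN1A, which encodes p21, went the other way in RD, rising by 0.26 (log2, adjusted p = 0.00239), and fell by 0.55 in Rh30 (adjusted p = 0.000346).

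PLAGL1 (ENSG00000118495, chr6:143940300-144064599, - strand) encodes a zinc finger transcription factor known to act on other imprinted genes. Its level in RD Scramble was 78.7, 82.9 and 77.1 FPKM, and in RD KDM3A-sh2 52.9, 52.8 and 55.6 FPKM. In Rh30 Scramble it was 129, 130 and 121 FPKM, and in Rh30 KDM3A-sh2 85.6, 85.9 and 87.8 FPKM. Both pairs of groups stood apart. In RD PLAGL1 fell by 32.4% (log2 change -0.56, SE 0.044, adjusted p = 0.000144). In Rh30 PLAGL1 fell by 31.5% (-0.54, SE 0.040, adjusted p = 0.000317). The difference between the lines was 0.02 (SE 0.056, adjusted p = 0.863). Its relative PLAGL2 rose by 0.15 in RD (log2, adjusted p = 0.0317).

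PEG10 (ENSG00000242265, chr7:94656325-94669695, + strand) is a gene derived from a retrotransposon, and SGCE (ENSG00000127990, chr7:94524204-94656572, - strand), which encodes epsilon-sarcoglycan of the muscle membrane, starts beside it on the opposite strand. PEG10 stood at 410.5, 407 and 434 FPKM in RD Scramble and at 504, 480 and 537 FPKM in RD KDM3A-sh2. In Rh30 Scramble it was at 474, 467 and 520 FPKM, and in Rh30 KDM3A-sh2 at 785, 807 and 786 FPKM. The rise of PEG10 in RD was 21.5% (log2 change 0.28, SE 0.049, adjusted p = 0.00423). In Rh30 the rise was 62.7% (0.70, SE 0.046, adjusted p = 0.000206). The rise was larger in Rh30 by 0.42 (SE 0.070, adjusted p = 0.00125).

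SGCE did not follow its neighbour past the test. In RD it stood at 98.4 ± 7.69 FPKM in Scramble and 107 ± 8.63 FPKM with KDM3A-sh2 (log2 change 0.12, adjusted p = 0.273). In Rh30 it stood at 71.3 ± 6.55 and 70.7 ± 6.75 FPKM (-0.01, adjusted p = 0.935). The groups overlapped in both lines. The ratio of SGCE to PEG10 was 0.137 to 0.161 in Rh30 Scramble and 0.0823 to 0.0999 in Rh30 KDM3A-sh2. In RD it was 0.208 to 0.259 and 0.202 to 0.221, which overlap.

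MEG3 (ENSG00000214548, chr14:100779410-100861031, + strand) is a long noncoding RNA of the DLK1-MEG3 domain. In Rh30 it rose from 354, 360 and 337 FPKM in Scramble to 452, 453 and 515 FPKM with KDM3A-sh2 (log2 change 0.43, SE 0.058, adjusted p = 0.00286). In RD it was at 113, 113 and 136 FPKM in Scramble and at 101, 103 and 111 FPKM with KDM3A-sh2. The RD groups did not overlap, but the change of -0.19 did not pass the test (SE 0.080, adjusted p = 0.0956). The lines differed by 0.63 (SE 0.108, adjusted p = 0.00156). MEG9, a noncoding RNA of the same domain, rose with MEG3 in Rh30 by 0.46 (log2, adjusted p = 0.00421). Other noncoding RNAs there did not pass the limma test in Rh30. These were MEG8 (0.23, adjusted p = 0.112) and AL117190.1, which overlaps MEG3 (0.27, adjusted p = 0.0643).

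DLK1 (ENSG00000185559, chr14:100725705-100738224, + strand) encodes a transmembrane relative of the Notch ligands. It was low in both lines. In RD Scramble it stood at 2.38, 2.56 and 1.73 FPKM, and in RD KDM3A-sh2 at 1.56, 1.16 and 0.458 FPKM. The groups did not overlap, and the change of -0.68 missed the threshold (SE 0.234, adjusted p = 0.0562). With 1 library left out, the limma change ran from -0.85 to -0.45 (adjusted p from 0.0352 to 0.152). It passed without replicate 1 of RD KDM3A-sh2, the highest library of that group (-0.85, adjusted p = 0.0352). In Rh30 DLK1 was at 0.120 to 0.354 FPKM and was not tested. DLK1 was at most 0.0227 times the level of MEG3 in any library, so of these 2 genes the noncoding one had by far the higher level in both lines.

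PEG3 (ENSG00000198300, chr19:56810077-56840728, - strand), a large zinc finger protein, was at 412, 400 and 426 FPKM in Rh30 Scramble and at 419, 430 and 443 FPKM in Rh30 KDM3A-sh2. These groups overlap, and the change of 0.06 did not pass the test (SE 0.037, adjusted p = 0.269). In the 6 RD libraries PEG3 was at 0.333 to 0.812 FPKM and was not tested. MIMT1, which starts beside PEG3 on the opposite strand, rose in Rh30 by 0.39 (log2, adjusted p = 0.0103).

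**Figure D3:**
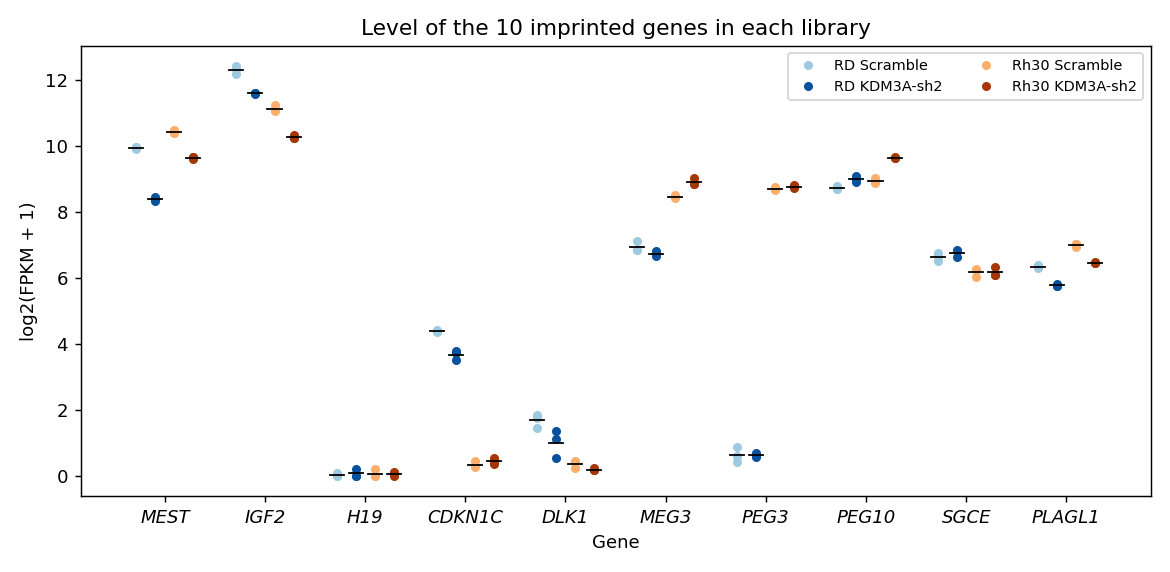
Level of the 10 imprinted genes in each of the 12 libraries as log2(FPKM + 1), with 1 point per library, colours for the 4 groups and a black line at each group's mean (n = 3). H19 is near 0 throughout, CDKN1C and DLK1 are near 0 in Rh30, PEG3 is near 0 in RD, and MEST, IGF2 and PLAGL1 step down with KDM3A-sh2 in both lines.

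Whether the change differed between the lines was tested over all 12 libraries as the change in Rh30 minus the change in RD. KDM3A itself fell by 63.7% in RD and by 52.4% in Rh30, a difference that passed this limma test (0.37, SE 0.119, adjusted p = 0.0388). Differences between the lines in the change of any gene in this text thus cannot be told apart from effects of unequal knockdown. Of the 7 genes beside MEST that were tested, 3 differed upward (CDKN1C, MEG3 and PEG10) and 4 did not pass (IGF2, PEG3, SGCE and PLAGL1). Of 18517 genes, 14.4% were called higher and 13.4% lower. No gene of the 7 was called lower in this limma test, with 0 at an unadjusted p under 0.05, while the test on unlogged FPKM called PLAGL1. The value of CDKN1C (0.82, SE 0.135, adjusted p = 0.00117) sets its drop in RD against a level in Rh30 too low to fall further. CDKN1C passed the filter only through RD and PEG3 only through Rh30. Neither result thus compares changes measured in both lines.

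The lines differed more at baseline. In the Scramble libraries, IGF2, CDKN1C, DLK1 and SGCE were lower in Rh30 than in RD, and MEG3, PEG3, PEG10 and PLAGL1 were higher. All 8 genes tested beside MEST were thus called, 4 in each direction, where 35.0% of 18352 genes were called higher and 39.6% lower. Of these, PEG3 passed the filter only through Rh30, and CDKN1C and DLK1 only through RD. Their calls, p-values and ranks below thus restate the line in which they were high. The groups did not overlap for any of the 8, against 77.5% of all genes. PEG3 ranked highest of all genes tested (8.06 higher in Rh30 on the log2(FPKM + 1) scale, SE 0.110, adjusted p = 1.03e-08), from a mean of 0.558 FPKM in RD to 413 FPKM in Rh30. CDKN1C was lower in Rh30 (-4.05, SE 0.088, adjusted p = 5.23e-08), at 0.192 to 0.367 FPKM against 19.4 to 20.4 FPKM. MEG3 was higher by 1.53 (adjusted p = 2.24e-06) and IGF2 lower (-1.17, adjusted p = 5.57e-06). PLAGL1 was higher by 0.66 (adjusted p = 1.27e-05) and DLK1 lower (-1.32, adjusted p = 0.000161). SGCE was lower (-0.46, adjusted p = 0.00194). PEG10 was higher by 0.22 (adjusted p = 0.00558), a call lost when every library was scaled to the same sum (0.11, adjusted p = 0.094). MEST was 39.7% higher in Rh30, given with no test. The median change of all genes was -0.04, and -0.14 under that same-sum scaling.

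Genes beside the members differed between the lines in both directions. Of 53 neighbours tested, 21 were higher and 19 lower in Rh30. Over all genes 35.0% were called higher and 39.6% lower, so these counts were near the background. Near PEG3, ZIM2 was at 0.0318 FPKM in RD Scramble and 4.61 FPKM in Rh30 Scramble, and MIMT1 was listed at 0 in RD and at 11.2 FPKM in Rh30. Of the other neighbours of PEG3, ZNF470, ZNF71 and ZIM2-AS1 were lower in Rh30 (-0.34, -0.77 and -0.38). At the DLK1-MEG3 domain MEG8 went from 3.55 to 12.1 FPKM and MEG9 from 4.58 to 18.0 FPKM, the direction of MEG3 and not of DLK1, and WDR25 was lower in Rh30 (-1.07). At the CDKN1C locus, PHLDA2 went from 55.2 to 0.0424 FPKM and SLC22A18 from 9.24 FPKM to a listed 0, whereas the antisense noncoding RNA of the domain, KCNQ1OT1, went from 0.453 to 2.02 FPKM. CARS and OSBPL5 were lower and NAP1L4 was higher in Rh30 (-0.30, -0.39 and 0.25). Each of these was called. However, ZIM2, MIMT1 and KCNQ1OT1 passed the filter only through Rh30, and PHLDA2 and SLC22A18 only through RD, so their calls restate those levels. Elsewhere NDN, a gene of the Prader-Willi region, was at 88.7 FPKM in RD and listed at 0 in all 3 Rh30 libraries, and NNAT went from 74.6 to 0.0580 FPKM.

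**Figure D4:**
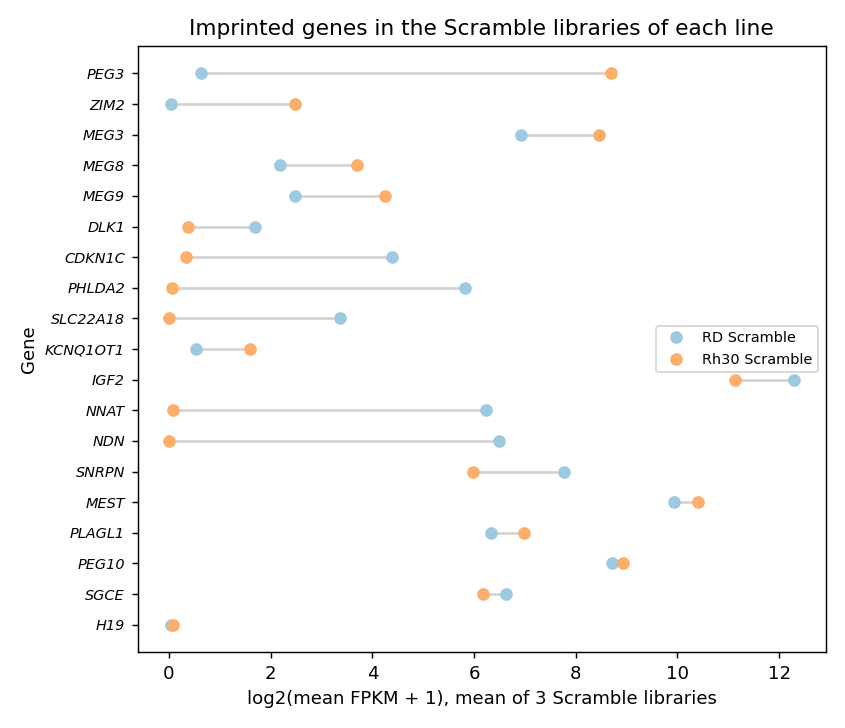
Mean level of selected imprinted genes in the 3 Scramble libraries of RD (blue) and Rh30 (orange), as log2(mean FPKM + 1), with a grey line joining the lines of a gene. PEG3 and ZIM2 lie to the right in Rh30 and CDKN1C, PHLDA2, SLC22A18, NNAT and NDN to the right in RD. In each case the same gene is near 0 in the other line.

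At the MEST locus, genes within 250 kb did not share a direction in RD. Of 8 tested there, 3 fell and 3 rose, where 19.5% of all genes in RD were called lower and 21.6% higher. COPG2, a coatomer subunit that overlaps the end of MEST on the opposite strand, fell in RD, from 40.4 ± 1.47 to 25.9 ± 0.665 FPKM (log2 change -0.62, adjusted p = 0.00012). In Rh30 COPG2 fell from 46.8 ± 2.93 to 39.4 ± 1.27 FPKM (-0.24, adjusted p = 0.0212). AC007938.3, which begins 1195 bases past MEST on the same strand, fell in RD from 11.2 ± 1.14 to 4.10 ± 0.382 FPKM (-1.26, adjusted p = 0.000149) and did not pass in Rh30 (-0.33, adjusted p = 0.306). For overlapping genes the reads of each may not be told apart, as the strand setting is not given.

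Carboxypeptidase genes lie on the other side of MEST. CPA4 rose in RD from 76.1 ± 2.86 to 243 ± 5.46 FPKM (log2 change 1.66, adjusted p = 8.09e-06), with no call in Rh30 (-0.10, adjusted p = 0.296). CPA5 fell in RD (-0.64) and rose in Rh30 (0.65). KLF14, a transcription factor gene past COPG2, rose in RD by 0.44, and CEP41, a centrosome gene, by 0.39. AC234644.1 did not pass in RD (-0.58). In Rh30, 10 neighbours were tested. Among them MESTIT1, the antisense RNA at the start of MEST, went from 0.832 ± 0.156 to 1.84 ± 0.176 FPKM (0.63). MESTIT1 passed the filter only through KDM3A-sh2, so its call restates that level. CPA1, CEP41 and KLF14 did not pass there (-0.10, -0.03 and 0.25), nor did AC234644.1.

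Over all members, 49 neighbours within 250 kb were tested in RD, of which 12 rose and 10 fell, and 46 in Rh30, of which 8 rose and 6 fell. These counts were near those over all genes (21.6% and 19.5% in RD, 15.3% and 13.2% in Rh30). Away from MEST, the largest rises in RD were of COL1A2, a collagen gene near PEG10 and SGCE, which went from 0.741 to 4.37 FPKM, and of CARS near CDKN1C (0.89). In RD, CDKN1C thus fell while CARS rose. Near IGF2 the troponin gene TNNT3 fell in RD (-0.72). Near H19 the pseudogene RPL36AP39 fell in RD (-0.93), from 1.77 to 0.395 FPKM, and AC068580.2 fell in Rh30 (-0.92). In RD, COL1A2 passed the filter only through KDM3A-sh2 and RPL36AP39 only through Scramble. The calls of these genes thus restate those levels. Near PLAGL1, UTRN, which encodes utrophin, rose in RD by 0.31, and PHACTR2 fell in Rh30 (-0.49).

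Of 57 other imprinted genes matched in the table, 36 were tested in RD, where 9 rose and 8 fell, and 35 in Rh30, where 8 rose and 7 fell. Of all genes, 21.6% rose and 19.5% fell in RD and 15.3% and 13.2% in Rh30, so the counts in RD were near the background. Their median change was -0.03 in RD and 0.10 in Rh30, against 0.01 and 0.03 for all genes. In RD CPA4, NAP1L5 (0.91) and FAM50B (0.72) rose most, and the largest drops were those of SNURF (-0.73), ZNF331 (-0.71) and COPG2. In Rh30 BLCAP (0.72), MESTIT1 and FAM50B (0.60) rose most, and IGF2-AS, ZDBF2 (-0.43) and RB1 (-0.37) fell most. MESTIT1 passed the filter only through KDM3A-sh2, so its call restates that level. The counts rest in part on single libraries. Without replicate 1 of Rh30 KDM3A-sh2, 3 rather than 8 were called higher in Rh30, and without replicate 3 of RD Scramble or of RD KDM3A-sh2, 4 rather than 9 in RD. Of 29 tested in both lines, 8 were called in both, 5 in the same direction (NAP1L5, FAM50B, COPG2, IGF2-AS and GNAS) and 3 in opposite ones (IGF2R, TFPI2 and ZNF331). IGF2R, the receptor that clears IGF2, rose by 0.21 in RD and fell by 0.36 in Rh30. The change differed between the lines for 11 of 37, with 7 higher and 4 lower in Rh30, where 14.4% and 13.4% of all genes were called.

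**Figure D5:**
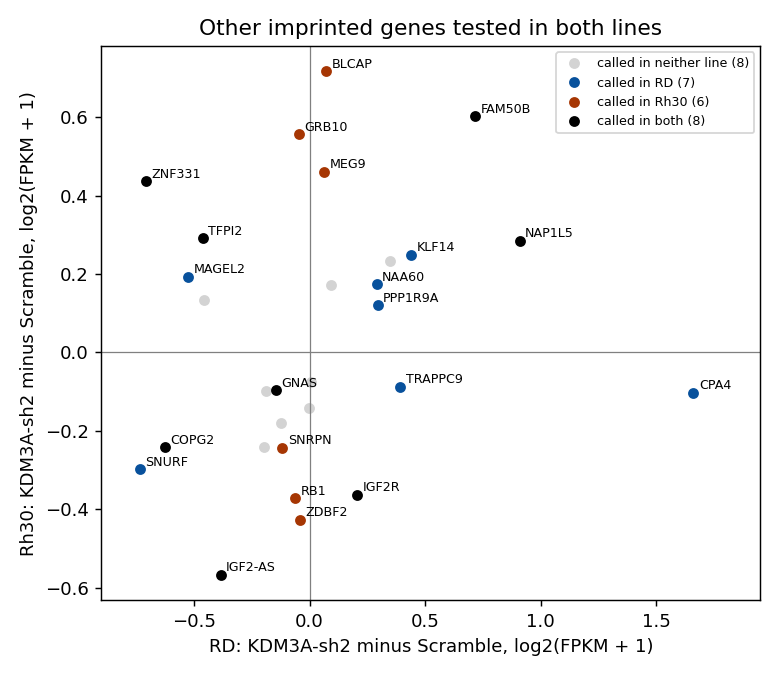
Change with KDM3A-sh2 of the 29 other imprinted genes tested in both lines, RD on the x axis and Rh30 on the y axis, each as the difference of mean log2(FPKM + 1). Colours give the line in which a gene was called, and the points lie in all 4 quadrants, with CPA4 the farthest to the right.

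Genes that set or keep imprints, among them DNA methyltransferases and the factors that recruit them, were listed as well. In RD, 8 of 14 tested fell and none rose in limma, with 0 rises at an unadjusted p under 0.05 and 0 in the test on unlogged FPKM. Over all genes in RD 19.5% were called lower and 21.6% higher, and the median change was -0.21 for the list and 0.01 for all genes. UHRF1, which brings DNMT1 to newly copied DNA, fell from 107 ± 0.938 to 69.4 ± 1.65 FPKM (log2 change -0.62, adjusted p = 3.97e-05), and HELLS, a chromatin remodeller, from 41.9 ± 2.81 to 29.7 ± 2.64 FPKM (-0.48, adjusted p = 0.00308). CTCF, the insulator protein, fell by 0.45, DNMT1, the maintenance methyltransferase, by 0.40, and DNMT3A, which sets new methylation, by 0.20. TRIM28, ZNF445 and DNMT3B fell too (-0.27, -0.23 and -0.35). In Rh30, 2 of 15 fell (CTCF, -0.20, and DNMT1, -0.18) and 2 rose (DNMT3A, 0.46, and TLE6, 0.92), where 13.2% of all genes fell and 15.3% rose. For 6 of 15 the change was higher in Rh30 than in RD past the test (DNMT1, UHRF1, DNMT3A, CTCF, TLE6 and HELLS), against 14.4% of all genes, with DNMT3A differing by 0.66 (SE 0.079, adjusted p = 0.000154). UHRF1, HELLS and DNMT1 are also genes of dividing cells, and their part in any change of the imprinted genes was not tested.

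Relatives of the members that are mostly not imprinted (22 genes, of the CDKN1, PLAG, sarcoglycan, DLK and retrotransposon-derived families) were described in the same way. In RD 11 of 16 tested rose and 1 fell (PNMA2, -0.27), where 21.6% of all genes rose and 19.5% fell. In Rh30, 5 of 17 rose and 3 fell, where 15.3% of all genes rose and 13.2% fell. The median change of the list was 0.29 in RD and 0.03 in Rh30, against 0.01 and 0.03 for all genes. Like PEG10, RTL8C, RTL8B, RTL8A and LDOC1, which also derive from retrotransposons, rose in both lines. PNMA2, listed with the retrotransposon-derived families too, went the other way in RD (-0.27). For RTL8C the log2 change was 0.73 (RD, adjusted p = 5.5e-05) and 0.27 (Rh30, adjusted p = 0.00121), and for LDOC1 0.61 and 0.58. SGCA, which encodes alpha-sarcoglycan, rose as well, by 0.48 (RD, adjusted p = 0.000621) and 0.60 (Rh30, adjusted p = 0.00029), whereas its relative SGCE did not pass in either line. The RTL8 genes are close copies of each other and can share reads.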

How the data were processed

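RNA of RD and Rh30 cells was sequenced by the authors from a directional mRNA preparation, in 12 libraries, 3 per group. Per the labels and the Methods, reads were aligned to GRCh38 with GSNAP, handled with SAMtools and turned into FPKM with Cufflinks. The deposited table holds FPKM without a log, so count-based tests were not used and the number of reads is unknown. The annotation release and the strand setting are not given in the sources used here, and the read length differs between the Methods and the labels.

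Of 66095 entries, 120 repeats of an identifier (the one with the lower mean was dropped) and 17 genes with the placeholder 999999999 were left out. The comparisons were KDM3A-sh2 against Scramble within each line, Rh30 against RD at baseline, and the changes between lines, fitted on log2(FPKM + 1) with limma 3.58.1 in R 4.3.3 (lmFit, eBayes with a trend, two-sided, Benjamini-Hochberg over all genes averaging 1 FPKM or more). The authors used ANOVA, run here per gene on unlogged FPKM as an alternative. Other alternatives were the pseudocount, the filter, the scaling, the trend, 1 fit over all libraries, a replicate block and each library left out. The sums of MEST with its pseudogenes and of IGF2 with AC132217.1 were added after the data were seen. The fit was tested on simulated data. The main fits treated the libraries as unpaired. Within each line, deviations of same-numbered libraries from their group means were not positively correlated (Pearson's r from -0.247 to -0.0498). Between the Scramble groups r was 0.116, 0.027 and -0.131. Positions come from GENCODE 29, which holds 86.3% of the identifiers, and start windows and microRNAs from RefSeq (GRCh38.p14). No protein sequence was used.

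The members and lists were chosen with earlier results of these data known. Named were all 10 members, the tested neighbours of MEST, the largest changes at the other members, up to 3 rises and 3 drops per list of imprinted or maintenance genes, the largest of the other lists, and the 5 genes most like MEST. Further genes in the text were named after their values were seen, among them those that complete a count. The others were CPA5, IGF2R, MEG9, AL117190.1, PLAGL2, CDKN1A, UTRN, SGCA and the baseline neighbours of PEG3, MEG3 and CDKN1C. Some results under this rule are not reported here.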

Additional observations from a re-analysis of the deposited data

Results flagged for a closer look

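The change with KDM3A-sh2 differed between Rh30 and RD for 3 of the genes chosen by name and 11 other imprinted genes in the interaction test of limma over 12 libraries, of which 9 are given here. Among the genes chosen by name these were CDKN1C (0.8241, adjusted p = 0.001173), MEG3 (0.6263, adjusted p = 0.001558) and PEG10 (0.4234, adjusted p = 0.001248), each as the change in Rh30 minus that in RD on the log2(FPKM + 1) scale. CDKN1C was at 0.192 to 0.454 FPKM in Rh30 and passed the filter only through RD, so its value restates its drop in RD.

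Among the other imprinted genes, the change was lower in Rh30 for CPA4 (-1.762, adjusted p = 1.496e-07), NAP1L5 (-0.624, adjusted p = 0.0001781) and IGF2R (-0.5703, adjusted p = 0.0004803). It was higher in Rh30 for ZNF331 (1.143, adjusted p = 0.0001868), TFPI2 (0.753, adjusted p = 3.617e-05) and MAGEL2 (0.7189, adjusted p = 0.0001944). TFPI2, which encodes an inhibitor of serine proteases, fell from 214 to 155 FPKM in RD and rose from 5.40 to 6.82 FPKM in Rh30. MAGEL2, of the Prader-Willi region, fell in RD from 9.26 to 6.13 FPKM.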

How the results depend on the processing

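Of 522 values under alternatives, over 32 changes of single genes, 505 kept their direction and their side of the threshold, 1 lost its call (PEG10 at baseline), 4 gained one (DLK1 and MEG3 in RD), 10 turned direction and 2 moved (MEST between lines, 0.71, and at baseline, 0.37, both with libraries scaled to the same sum). Those that turned were SGCE in Rh30 (-0.0885 to 0.0369 with 1 library left out), PEG3 between lines (-0.0536 to 0.168 with 1 left out), PLAGL1 between lines (-0.0155 to 0.0402 with 1 left out, -0.0427 at the same sum, -14.0 FPKM unlogged, adjusted p = 0.0174) and IGF2 between lines (956 FPKM unlogged, adjusted p = 0.0189), of which both unlogged values passed the threshold. The cause was not tested.

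Replicate numbers gave no clear sign of pairing within a line, and no label states it. With the replicate block, members called lower in RD went from 3 to 5 (DLK1, adjusted p = 0.0334, and MEG3, adjusted p = 0.0338). Other imprinted genes called went from 8 to 5 higher and from 7 to 4 lower in Rh30, and from 9 to 5 higher in RD. Keeping genes with 10 FPKM in 1 library gave 4 higher in Rh30, 4 higher in RD, and at baseline 9 higher and 10 lower. In RD no filter gave 4 higher and the unlogged test 3. Between lines the unlogged test called 1 member and 8 other imprinted genes lower, and the same-sum scaling 9. With 1 library left out, other imprinted genes called were 3 to 6 higher and 4 to 6 lower in Rh30, and 4 to 8 higher in RD. DLK1 in RD ran from -0.85 to -0.45 with 1 left out. FPKM keep no read count, so the precision of genes near 1 FPKM is unknown.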
